A study of Mus musculus with 16 samples.

Results

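The epithelium of the distal colon takes up sodium through a pathway that the steroid hormone aldosterone regulates. In mouse colon 9 genes of this pathway were followed here: Scnn1a, Scnn1b, Scnn1g, Sgk1, Cnksr3, Tsc22d3, Hsd11b2, Atp1b1 and Fxyd4. They were chosen by name for their known role in this pathway, with earlier results of these data known. All 9 were among the 24421 genes of the expression table, and all 9 were among the 18267 genes that passed the filter on low values and were tested.

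Sodium enters the surface cells of the distal colon through the epithelial sodium channel in the membrane that faces the gut lumen, and the sodium-potassium pump on the opposite side of the cell moves it on towards the blood. Aldosterone binds the mineralocorticoid receptor, a nuclear receptor, which then raises transcription of channel subunits and of proteins that keep the channel at the surface. Many nuclear receptors are held down by corepressors such as NCoR1, which brings a histone deacetylase to them.

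RNA from colon tissue of C57BL/6 mice, 8 weeks old, was sequenced in 16 libraries that fall into 4 groups of 4, and each library holds the combined RNA of 3 mice. DIEC mice lack NCoR1 in intestinal epithelial cells, and the groups were DIEC mice given 2.5% dextran sulfate sodium (DSS) and sampled on day 3 (DIEC DSS), DIEC mice on water (DIEC naive), NCoR1F/F mice given the same DSS (F/F DSS) and NCoR1F/F mice on water (F/F naive). The genotype label of the F/F groups is wild type. DSS is a sulfated polysaccharide that injures the lining of the colon. The sources used here do not name the driver of the deletion, every value is a mean over a pool of mice, and colon tissue also holds muscle, nerve, vessel and immune cells in which the deletion is not made.

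Values are scaled reads: reads on the exons of a gene, which the authors divided by 1 factor per library so that all libraries have the same total, and the 4 values of a group are given in the order of its libraries. The libraries held 19957413 to 34733832 reads on genes, and the 9 genes drew between 194 reads (Scnn1g) and 106320 reads (Atp1b1) in a library. Ncor1 itself had 1663, 1546, 1343 and 1602 scaled reads in DIEC DSS and 1823, 1756, 1979 and 1805 in DIEC naive, against 4078, 3709, 3689 and 3736 in F/F DSS and 3445, 3730.4, 3585 and 3680.1 in F/F naive, and the DIEC libraries all lay below the F/F libraries (log2 change -0.97 ± 0.07 in naive and -1.31 ± 0.07 in DSS colon). All 10 epithelial markers were present in every library, with a summed level of 393000 to 438000 scaled reads in DIEC DSS and 300000 to 359000 in DIEC naive, against 386000 to 407000 in F/F DSS and 312000 to 351000 in F/F naive. The third DIEC DSS library stood apart on the second principal component (-60.4, against -17.2 to 8.64 in the other DIEC DSS libraries). The 5 pancreatic acinar markers summed to 4.64 to 12.3 scaled reads in DIEC DSS and 3520 to 359000 in DIEC naive, against 1.9 to 9.17 in F/F DSS and 68.4 to 67200 in F/F naive, and their part in the results was not tested. The share of genes called higher depends on the scaling. As deposited, the median gene changed by -0.24 on the log2 scale with DSS in DIEC mice, by -0.11 with DSS in F/F mice, by -0.05 between DIEC naive and F/F naive and by -0.20 between DIEC DSS and F/F DSS. TMM scaling shifts these changes upward by 0.237, 0.094, 0.037 and 0.183. It turns 2250 higher and 7302 lower genes with DSS in DIEC into 4582 and 4802, and 2982 and 5205 with DSS in F/F into 4166 and 4120. It turns 599 higher and 4747 lower genes between DIEC DSS and F/F DSS into 1223 and 1341, and 258 and 150 between DIEC naive and F/F naive into 324 and 124.

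Sgk1 differed most between the genotypes among the 9 genes, while Scnn1a, Hsd11b2 and Atp1b1 rose with DSS and had no genotype call. With DSS in DIEC mice 6 of the 9 genes rose and none fell, where 12.3% of all genes tested rose and 40.0% fell, and Scnn1b, Scnn1g and Fxyd4 did not pass. With DSS in F/F mice 8 of the 9 rose and none fell, against 16.3% and 28.5% of all genes, and Scnn1g did not pass. Between DIEC naive and F/F naive 4 of the 9 were higher (Sgk1, Fxyd4, Scnn1b and Tsc22d3), against 1.41% of all genes, and none was lower, against 0.821%. Between DIEC DSS and F/F DSS 6 of the 9 were higher (Sgk1, Scnn1g, Fxyd4, Scnn1b, Cnksr3 and Tsc22d3), against 3.28% of all genes, and none was lower, against 26.0%. Without the third DIEC DSS library 5 members rose with DSS in DIEC mice and 3 were higher in DIEC DSS than in F/F DSS. The genes called higher then numbered 2460 and 504 of 18267, against 2250 and 599 with all libraries. The naive count of 4 fell to 2 without any 1 DIEC naive library and without the second or the fourth F/F naive library, to 1 without the third, and stayed at 4 without the first. The count of 6 between the DSS groups fell to 3 without the second DIEC DSS or the first F/F DSS library and to 2 without the fourth F/F DSS library. The genes called higher in these 3 fits numbered 543, 495 and 489 of 18267, against 599 with all libraries. Under TMM scaling all 9 rose with DSS in both genotypes. A gene counts as changed where its limma adjusted p over all tested genes is under 0.05. The median log2 change of the 9 genes was 0.57 with DSS in DIEC, 0.73 with DSS in F/F, 0.41 between the naive groups and 0.44 between the DSS groups. Without overlap between the groups, 5 members were higher with DSS in DIEC (9.59% of all genes), 6 with DSS in F/F (15.5%), 6 between the naive groups (4.33%) and 3 between the DSS groups (3.1%). In bulk tissue, fewer cells of a type and less RNA per cell cannot be told apart, and this holds for every change below.

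**Figure D1:**
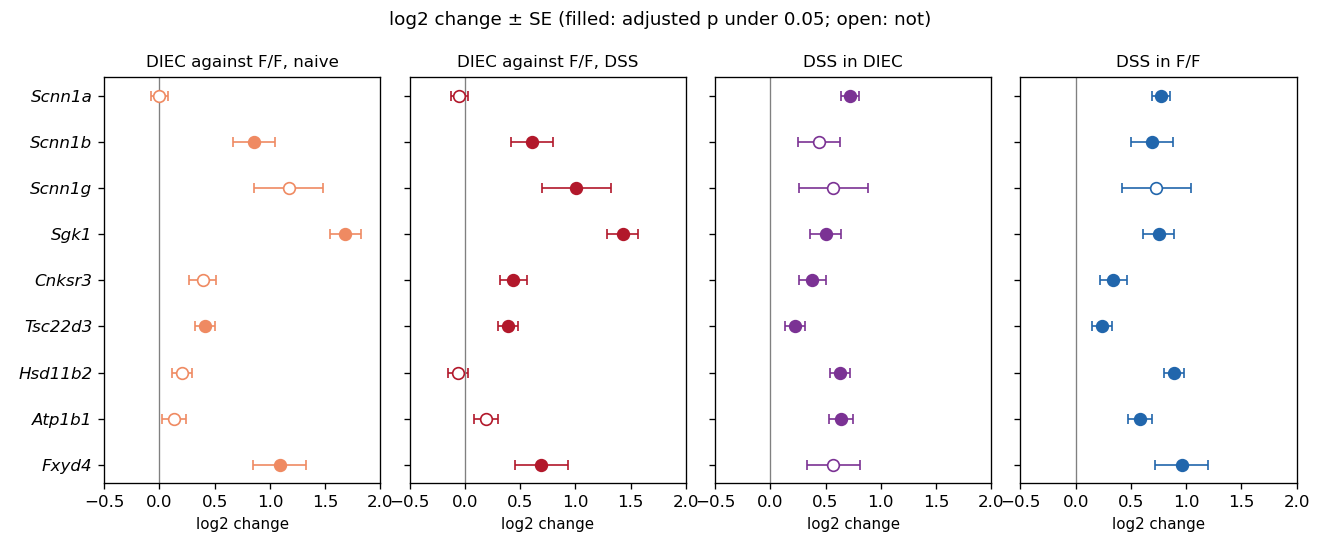
Log2 change on the x axis with its standard error for each of the 9 genes (rows) in 4 comparisons (panels), filled where the limma adjusted p was under 0.05. Sgk1 stands farthest to the right in both genotype panels (1.68 naive, 1.43 DSS), while Scnn1a lies at 0.00 and -0.05 there and at 0.72 (DIEC) and 0.77 (F/F) in the DSS panels.

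The comparisons share libraries: both DSS comparisons use a group that a genotype comparison uses too, so their values are set side by side below and not counted as agreement.

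The channel is built from an alpha, a beta and a gamma subunit. Scnn1a encodes the alpha subunit, which all channels need, and lies on chromosome 6 at 125271358 to 125294960 on the plus strand of mm9, the build of all gene positions from the table. It had 9555, 10119, 9877 and 9217 scaled reads in DIEC DSS and 5346, 5592, 5845 and 6842 in DIEC naive. In F/F mice it had 9859, 10337, 9833 and 10110.1 in DSS and 5712, 5354, 5621 and 6949.9 in naive colon. All DSS libraries lay above all naive libraries in both genotypes, and the genotypes overlapped. Scnn1a rose 1.65-fold with DSS in DIEC mice (log2 change 0.72 ± 0.08 SE, adjusted p = 9.1e-07) and 1.71-fold in F/F mice (0.77 ± 0.08, adjusted p = 1.9e-06). DIEC and F/F differed by 0.00 ± 0.08 in naive colon (adjusted p = 1.0) and by -0.05 ± 0.08 in DSS colon (adjusted p = 0.70), and those small values change sign with the scaling.

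Scnn1b and Scnn1g encode the beta and gamma subunits, the subunits that aldosterone is known to induce in rodent distal colon. They are neighbours on chromosome 7, both on the plus strand: Scnn1g spans 128878021 to 128911991 and Scnn1b spans 129008552 to 129062242, with 96.6 kb between the end of Scnn1g and the start of Scnn1b. Scnn1b had 1178, 1284, 1555 and 1026 scaled reads in DIEC DSS and 848, 706, 1067 and 1119 in DIEC naive. In F/F mice it had 606, 793, 1163 and 787 in DSS and 622, 523, 459 and 435 in naive colon. The naive groups did not overlap, and the lowest DIEC naive library stood at 706 against a highest F/F naive library of 622. The DSS groups overlapped through the F/F DSS library at 1163. Scnn1b was 1.82-fold higher in DIEC naive than in F/F naive (0.86 ± 0.19, adjusted p = 0.026) and 1.53-fold higher in DIEC DSS than in F/F DSS (0.61 ± 0.19, adjusted p = 0.027). With DSS its change of 0.44 ± 0.19 in DIEC mice did not pass (adjusted p = 0.07), and it rose by 0.69 ± 0.19 in F/F mice (adjusted p = 0.0087).

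Scnn1g had 1438, 1424, 1276 and 975 scaled reads in DIEC DSS and 668, 567, 931 and 1481 in DIEC naive. In F/F mice it had 516, 705, 869 and 483 in DSS and 491, 386, 229 and 464 in naive colon. All DIEC libraries of a treatment stood above all F/F libraries of the same treatment, and the widest group was DIEC naive, where the fourth library alone reached the DSS level. Scnn1g was 2.02-fold higher in DIEC DSS than in F/F DSS (1.01 ± 0.31, adjusted p = 0.027). In naive colon the log2 difference was 1.17 ± 0.31 and missed the threshold (adjusted p = 0.08). edgeR's quasi-likelihood test on the reads gave 1.25 with an adjusted p of 0.024. Its changes with DSS, 0.57 ± 0.31 in DIEC and 0.73 ± 0.31 in F/F, did not pass (adjusted p = 0.15 and 0.075).

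The genotype calls of both subunits lean on single libraries. The naive call for Scnn1b was lost in 6 of the 8 fits that left out 1 naive library (adjusted p 0.017 to 0.093), its DSS call in 4 of 8 (0.005 to 0.086) and the DSS call for Scnn1g in 5 of 8 (0.023 to 0.082), while the log2 differences kept their sign, at 0.77 to 0.99, 0.47 to 0.78 and 0.89 to 1.17.

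**Figure D2:**
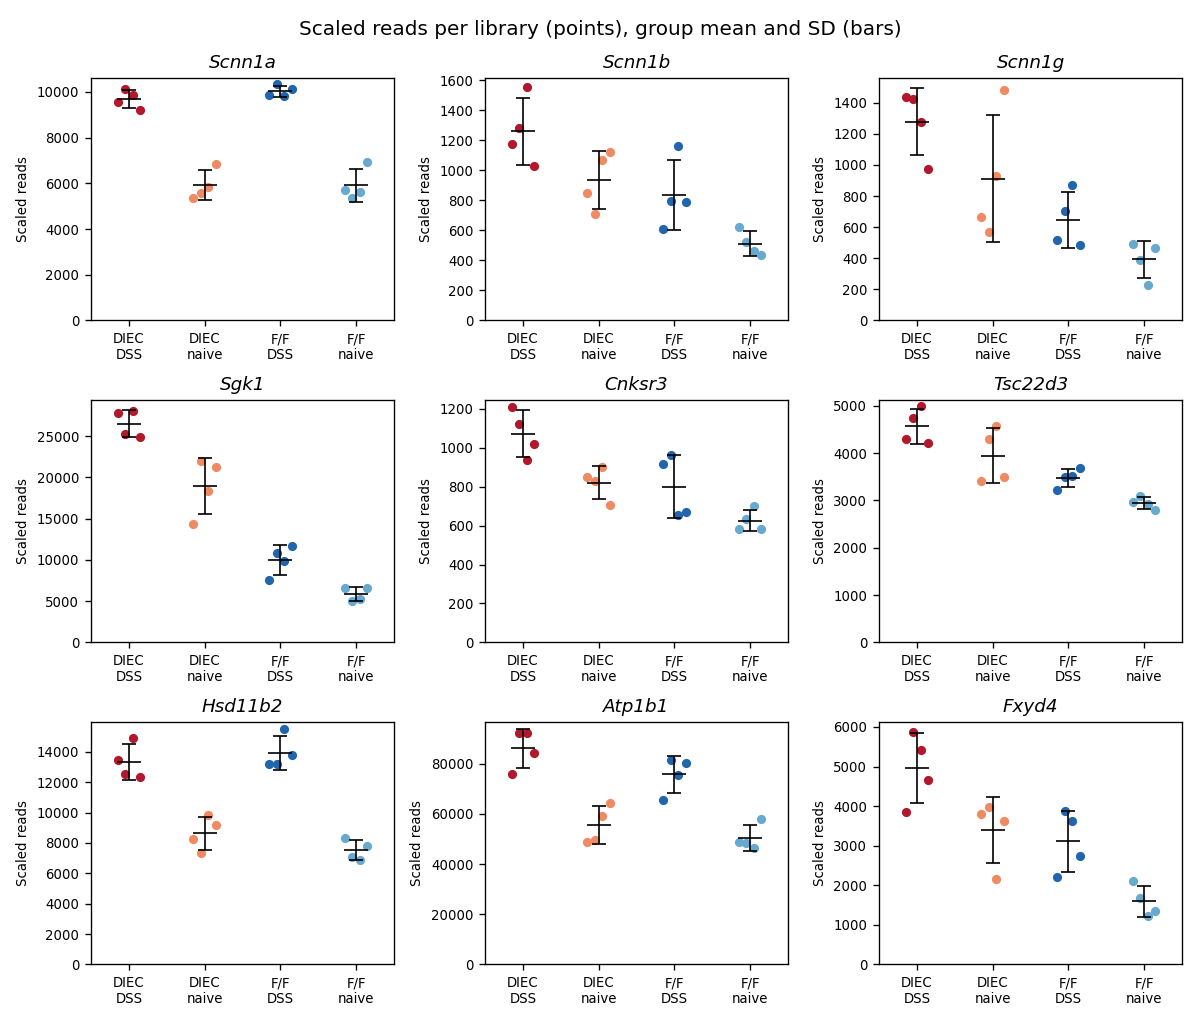
Scaled reads on the y axis for each of the 9 genes (panels) in every library (points), with the mean and SD of each group of 4 libraries. Scnn1a, Hsd11b2 and Atp1b1 separate DSS from naive libraries, and Sgk1 separates all 4 groups, from 24938 or more in DIEC DSS to 6633 or less in F/F naive.

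The subunits can be set against each other within a library by the ratio of their levels per kilobase of transcript. Beta stood to alpha as 0.152, 0.156, 0.194 and 0.137 in DIEC DSS and as 0.195, 0.155, 0.225 and 0.201 in DIEC naive, against 0.0757, 0.0944, 0.146 and 0.0959 in F/F DSS and 0.134, 0.12, 0.101 and 0.077 in F/F naive. All 4 DIEC naive ratios exceeded all 4 F/F naive ratios, and the DSS groups overlapped by 1 library. Gamma to alpha was 0.178, 0.166, 0.153 and 0.125 in DIEC DSS and 0.148, 0.12, 0.188 and 0.256 in DIEC naive, against 0.0618, 0.0805, 0.104 and 0.0564 in F/F DSS and 0.101, 0.0851, 0.0481 and 0.0789 in F/F naive, with no overlap between genotypes in either treatment. On the log2 scale the beta ratio was higher by 0.86 ± 0.21 SE in DIEC naive than in F/F naive and the gamma ratio by 1.17 ± 0.33, each with p = 0.0286 in a two-sided exact permutation test of 4 against 4 libraries, the smallest p that design allows. In DSS colon the beta ratio differed by 0.66 ± 0.22 (exact permutation p = 0.0571) and the gamma ratio by 1.07 ± 0.23 (exact permutation p = 0.0286). These ratios were picked after the values were seen, and over the family of 16 ratio comparisons none passed adjustment (lowest adjusted p = 0.152). DSS moved the gamma ratio by -0.15 ± 0.26 in DIEC and -0.04 ± 0.31 in F/F mice.

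**Figure D3:**
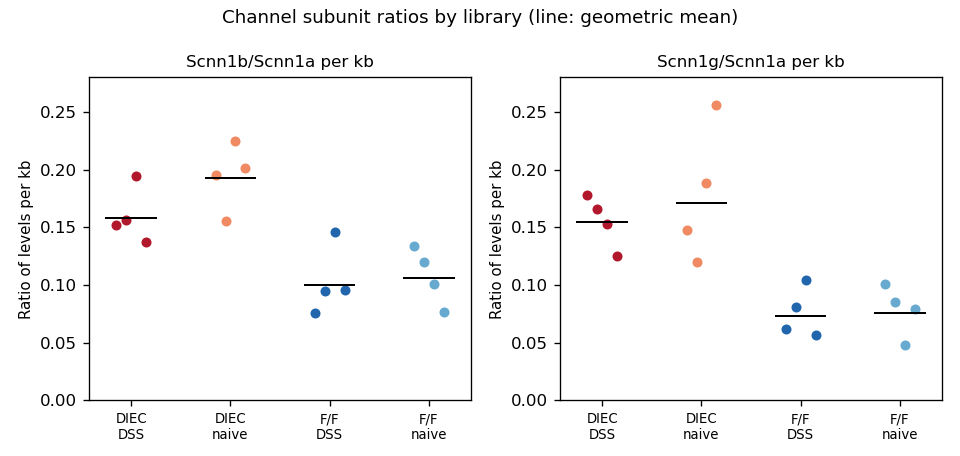
Ratio of the beta subunit gene (left) and the gamma subunit gene (right) to the alpha subunit gene, each per kilobase, in every library (points), with the geometric mean of each group as a line. The DIEC groups have geometric means of 0.158 and 0.192 for beta and 0.154 and 0.171 for gamma, against 0.0999 and 0.106 and 0.0736 and 0.0756 in the F/F groups.

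Sgk1 encodes a kinase that aldosterone and glucocorticoids induce and that phosphorylates the ubiquitin ligase Nedd4l, which otherwise removes the channel from the membrane. The gene lies on chromosome 10 at 21714472 to 21719708 on the plus strand. Sgk1 had 27824, 25226, 28091 and 24938 scaled reads in DIEC DSS and 14416, 21952, 18395 and 21226 in DIEC naive. In F/F mice it had 7526, 10884, 9861 and 11651 in DSS and 6633, 5029.8, 5307 and 6551 in naive colon. The 4 groups did not overlap, in the order DIEC DSS, DIEC naive, F/F DSS and F/F naive from high to low. Sgk1 was 3.21-fold higher in DIEC naive than in F/F naive (1.68 ± 0.14, adjusted p = 2.6e-06), at rank 45 of the 18267 genes tested by log2 change. It was 2.69-fold higher in DIEC DSS than in F/F DSS (1.43 ± 0.14, adjusted p = 4e-06). DSS raised it 1.41-fold in DIEC mice (0.50 ± 0.14, adjusted p = 0.0065) and 1.69-fold in F/F mice (0.75 ± 0.14, adjusted p = 0.00034). All 4 calls held whichever library was left out. Scaling to the epithelium markers ended the DSS call in DIEC mice, at 0.31 (adjusted p = 0.094), and no other of the 20 settings did so for any of the 4 calls.

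Sgk1 has several transcription starts, and a window 250 bases before to 50 bases after each start was read from RefSeq for 7 of the 9 genes, 14 windows in all, on the build GRCm38.p6. The element to which the receptors for mineralocorticoids and glucocorticoids bind is a palindrome, searched here as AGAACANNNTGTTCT, which reads the same on both strands. It was present in 1 of the 14 windows, the fifth of Sgk1 at chr10:21993640-21993939 on the plus strand, and in 3 of all 32851 windows of the annotation (0.00913%). The match lies 189 bases before the nearest start and 965 bases before the start of the gene model that the reads were counted on. The shorter core ACANNNTGT, which the palindrome contains, was found in 2 of the 14 windows, both of Sgk1, and in 6.85% of all windows. A single arm, AGAACA on either strand, which the palindrome also contains, was found in 4 of the 14 and in 19.0% of all windows. The windows of Scnn1b (chr7:121864788-121865087, plus strand) and Scnn1g (chr7:121734229-121734528, plus strand) held none of these letters, and that says nothing about binding elsewhere. The Sgk1 window is shown for the palindrome, in capitals. Those of the beta and gamma subunit genes are shown because both were called higher in DIEC DSS than in F/F DSS.
Sgk1: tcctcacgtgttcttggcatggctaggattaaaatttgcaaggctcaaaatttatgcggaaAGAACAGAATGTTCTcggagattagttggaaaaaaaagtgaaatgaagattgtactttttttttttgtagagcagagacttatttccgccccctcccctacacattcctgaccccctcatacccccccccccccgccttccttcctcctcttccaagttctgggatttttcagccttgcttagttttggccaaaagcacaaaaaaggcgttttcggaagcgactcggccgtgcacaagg
Scnn1b: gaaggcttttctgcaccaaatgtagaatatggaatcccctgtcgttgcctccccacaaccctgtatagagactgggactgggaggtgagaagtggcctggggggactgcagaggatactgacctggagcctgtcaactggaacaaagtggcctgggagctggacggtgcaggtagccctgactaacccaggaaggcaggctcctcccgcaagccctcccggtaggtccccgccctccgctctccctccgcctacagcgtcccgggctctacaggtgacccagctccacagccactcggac
Scnn1g: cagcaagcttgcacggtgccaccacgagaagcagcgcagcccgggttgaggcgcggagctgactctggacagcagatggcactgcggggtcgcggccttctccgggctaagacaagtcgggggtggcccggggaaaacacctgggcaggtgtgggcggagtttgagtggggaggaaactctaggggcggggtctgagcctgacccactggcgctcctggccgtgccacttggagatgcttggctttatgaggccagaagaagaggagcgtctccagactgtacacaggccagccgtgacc

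Cnksr3 encodes a scaffold that holds Sgk1 and Nedd4l near the channel and is itself known as a mineralocorticoid receptor target in kidney cells. It lies on chromosome 10 at 3134304 to 3227479. Its levels were 1211, 1124, 939 and 1017 scaled reads in DIEC DSS and 849, 829.8, 901 and 705 in DIEC naive, against 918, 962, 652 and 669.5 in F/F DSS and 585, 634, 701 and 582 in F/F naive. The F/F DSS group fell into a higher and a lower pair, which reached into the F/F naive range and, at the top, past the lowest DIEC DSS library. Cnksr3 rose with DSS by 0.38 ± 0.12 in DIEC (adjusted p = 0.014) and by 0.34 ± 0.12 in F/F mice (adjusted p = 0.033), and the F/F call was lost in 5 of the 8 fits without 1 library (adjusted p 0.011 to 0.13). The DIEC call was lost without the fourth DIEC naive library (adjusted p = 0.054), and scaling to the epithelium markers ended both, at 0.20 in DIEC (adjusted p = 0.16) and 0.18 in F/F mice (adjusted p = 0.24). It was 1.35-fold higher in DIEC DSS than in F/F DSS (0.44 ± 0.12, adjusted p = 0.013), a call lost without the third or the fourth F/F DSS library (adjusted p = 0.053 for each). The naive log2 difference of 0.39 ± 0.12 did not pass (adjusted p = 0.12), though the naive groups did not overlap.

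Tsc22d3 encodes the glucocorticoid-induced leucine zipper protein, which aldosterone also induces and which raises channel activity in kidney cells. It lies on chromosome X at 137074068 to 137077726 on the minus strand. Tsc22d3 had 4308, 4749, 5006 and 4219 scaled reads in DIEC DSS and 3403, 4291, 4576 and 3499.7 in DIEC naive, against 3217, 3507, 3514 and 3684 in F/F DSS and 2958, 3095, 2918 and 2808 in F/F naive. Every DIEC library lay above every F/F library of the same treatment. It was 1.33-fold higher in DIEC naive (0.41 ± 0.09, adjusted p = 0.016) and 1.31-fold higher in DIEC DSS (0.39 ± 0.09, adjusted p = 0.0033) than in the F/F group of the same treatment. Its rise with DSS was small, 0.22 ± 0.09 in DIEC (adjusted p = 0.045) and 0.24 ± 0.09 in F/F mice (adjusted p = 0.035), and these calls were lost in 4 of 8 fits (adjusted p up to 0.18) and 6 of 8 fits (up to 0.092) without 1 library. Scaling to the epithelium markers ended both, at 0.04 in DIEC (adjusted p = 0.78) and 0.08 in F/F mice (adjusted p = 0.55). The naive genotype call was lost without the third F/F naive (adjusted p = 0.054), the second DIEC naive (0.064) or the third DIEC naive library (0.059) and without a filter (0.054), and the DSS genotype call in none of the 20 settings.

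Hsd11b2 encodes the enzyme that inactivates glucocorticoids in aldosterone target cells and so leaves the mineralocorticoid receptor to aldosterone. It lies on chromosome 8 at 108042646 to 108047888 on the plus strand. Hsd11b2 had 13464, 12549, 14943 and 12374 scaled reads in DIEC DSS and 8243, 7344, 9821 and 9202 in DIEC naive, against 13224, 13173, 15506 and 13797 in F/F DSS and 8305, 7091, 6854 and 7809 in F/F naive. DSS and naive libraries did not overlap in either genotype, and the genotypes overlapped in both treatments. It rose 1.55-fold with DSS in DIEC (0.63 ± 0.09, adjusted p = 1.6e-05) and 1.85-fold in F/F mice (0.89 ± 0.09, adjusted p = 1.5e-06). The genotype differences of 0.20 ± 0.09 in naive and -0.06 ± 0.09 in DSS colon did not pass (adjusted p = 0.36 and 0.66), and the DSS value turns positive under TMM, at 0.13.

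The sodium pump moves sodium out of the cell on the blood side. Atp1b1 encodes its beta subunit, which is needed for the pump to reach the membrane, and lies on chromosome 1 at 166367230 to 166388486 on the minus strand. Atp1b1 had 75742, 92205, 92335 and 84113 scaled reads in DIEC DSS and 48660.1, 49563, 59193 and 64275 in DIEC naive, against 65495, 81282, 75626 and 80358 in F/F DSS and 48959, 48531, 46410.15 and 58079 in F/F naive. All DSS libraries stood above all naive libraries of their genotype. Atp1b1 rose 1.56-fold with DSS in DIEC (0.64 ± 0.11, adjusted p = 4.8e-05) and 1.5-fold in F/F mice (0.58 ± 0.11, adjusted p = 0.00022). The differences between DIEC and F/F, 0.13 ± 0.11 in naive and 0.19 ± 0.11 in DSS colon, did not pass (adjusted p = 0.63 and 0.21), and the one in DSS colon passed under TMM (0.38, adjusted p = 0.039). Exons of Atp1b1 overlap those of Nme7 on the opposite strand, and reads of the pair may be mixed, since the kit named in the labels keeps no strand information unless modified.

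Fxyd4 encodes a small membrane protein, also called channel-inducing factor, that associates with the pump and raises its affinity for sodium, and that corticosteroids induce in rat colon. It lies on chromosome 6 at 117883577 to 117887353 on the minus strand. Fxyd4 had 3853, 5880.2, 5426 and 4671 scaled reads in DIEC DSS and 3790.3, 3985, 2158 and 3629 in DIEC naive, against 2205, 3871, 3620.1 and 2729 in F/F DSS and 2119, 1669, 1213 and 1358 in F/F naive. The naive groups were separate by a small margin, 2158 in the lowest DIEC naive library against 2119 in the highest F/F naive library. Fxyd4 was 2.12-fold higher in DIEC naive than in F/F naive (1.09 ± 0.24, adjusted p = 0.031) and 1.62-fold higher in DIEC DSS than in F/F DSS (0.69 ± 0.24, adjusted p = 0.045). The naive call was lost in 6 of 8 fits without 1 library and the DSS call in 5 of 8. Scaling to the epithelium markers, or testing without a filter, ended both genotype calls of Fxyd4 and of Scnn1b (adjusted p 0.056 to 0.098). With DSS the change of Fxyd4 in DIEC mice, 0.57 ± 0.24, did not pass (adjusted p = 0.062), and it rose 1.95-fold in F/F mice (0.96 ± 0.24, adjusted p = 0.0049).

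Per kilobase of transcript, the pump subunit was the most abundant member in every group, and the beta and gamma subunits and Cnksr3 were the least. In DIEC DSS the level per kilobase was 33300 ± 3060 for Atp1b1, 10900 ± 683 for Sgk1, 9130 ± 1640 for Fxyd4, 7240 ± 638 for Hsd11b2, 2780 ± 113 for Scnn1a, 2320 ± 189 for Tsc22d3, 445 ± 78.8 for Scnn1b, 433 ± 72.9 for Scnn1g and 312 ± 34.8 for Cnksr3 (SD, n = 4). In F/F naive it was 19600 ± 2010 for Atp1b1, 4080 ± 361 for Hsd11b2, 2930 ± 738 for Fxyd4, 2410 ± 340 for Sgk1, 1700 ± 204 for Scnn1a, 1500 ± 60.3 for Tsc22d3, 182 ± 16.2 for Cnksr3, 180 ± 29.5 for Scnn1b and 133 ± 39.9 for Scnn1g. The mean ± SD ranges of Sgk1 and Fxyd4 overlapped in both groups, as did those of Scnn1b and Scnn1g. Those of Fxyd4 and Hsd11b2 overlapped in DIEC DSS. In F/F naive those of Scnn1a and Tsc22d3 overlapped, and that of Cnksr3 overlapped those of both Scnn1b and Scnn1g. Sgk1 stood above Hsd11b2 in DIEC DSS and below it in F/F naive.

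Whether the deletion changed the response to DSS was tested as an interaction of genotype and DSS. None of the 9 genes passed with limma, where 3.63% of all genes tested did. edgeR and DESeq2 on the reads also called none of the 9, and none had an unadjusted limma p under 0.05. The interaction was -0.39 ± 0.34 for Fxyd4, -0.26 ± 0.20 for Sgk1, -0.26 ± 0.13 for Hsd11b2 (lowest p, 0.066 unadjusted and 0.25 adjusted) and -0.25 ± 0.27 for Scnn1b. The other 5 lay between -0.16 ± 0.44 (Scnn1g) and 0.06 ± 0.15 (Atp1b1). The median of the 9 was -0.16, equal to that of all genes. The calls for Scnn1b and Fxyd4 with DSS in F/F mice, beside no call in DIEC mice, do not show that the genotypes respond differently.

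The authors' deposited table also compares the 2 groups that differ in both factors, DIEC DSS and F/F naive. In the authors' deposited table Sgk1 was higher by 2.47 on the log2 scale (adjusted p = 2e-88), Scnn1g by 2.01 (2.8e-21), Fxyd4 by 1.95 (1.6e-25) and Scnn1b by 1.61 (4.1e-21). The other 5 members were higher by 0.93 (Tsc22d3) to 1.13 (Hsd11b2) in the authors' deposited table. That table calls more members than limma in the naive genotype comparison, with Scnn1g at 1.25 (adjusted p = 0.00025) and Cnksr3 at 0.42 (adjusted p = 0.015) in the authors' deposited table.

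The channel is made in the distal colon, so markers of position along the colon were read as well. The summed level of 6 distal Hox genes was 20300 to 23300 scaled reads in DIEC DSS and 10500 to 19100 in DIEC naive, against 20900 to 25100 in F/F DSS and 9560 to 14700 in F/F naive, so that this sum was higher in DSS than in naive libraries in both genotypes. Most of the sum was Hoxb13 (mean 17100 in DIEC DSS and 9160 in F/F naive). A centred score that averages the 6 genes on the log2 scale was -0.0594 to 0.313 in DIEC DSS and -0.562 to 0.341 in DIEC naive. It was 0.113 to 0.49 in F/F DSS and -0.689 to -0.0115 in F/F naive, so it separated DSS from naive libraries only in F/F mice. The summed level of the 4 proximal markers did not separate DSS from naive libraries. Its median was 24500 in DIEC DSS and 24800 in DIEC naive, against 18700 in F/F DSS and 14600 in F/F naive. Most of that sum was Cyp2c55 (mean 21300 in DIEC DSS and 12100 in F/F naive). Of the 4, only Hoxb7 was called with DSS. It was lower in F/F DSS (15.29 to 22.82 scaled reads) than in F/F naive (25.84 to 33.69). With DSS in DIEC mice 4 of the 6 distal genes were not called, and Hoxb13 rose (0.77 ± 0.17, adjusted p = 0.00097). Hoxd13 passed narrowly there (0.42 ± 0.17, adjusted p = 0.05 after rounding), a call lost in 11 of 20 other settings (0.24 with an adjusted p of 0.33 under epithelium scaling). In F/F mice 5 of the 6 rose, Hoxb13 by 1.03 ± 0.17 (adjusted p = 0.00012). None of the 6 passed between genotypes in either treatment. The fourth DIEC naive library had both the highest Scnn1g level (1481) and the highest distal sum (19100) of the naive libraries, and the third F/F naive library had the lowest of both (229 and 9560). Scnn1b was also highest among them in the fourth DIEC naive library (1119). Its lowest value (435) was in the fourth F/F naive library, which had the highest distal sum of F/F naive (14700). A link between position and these levels was not tested. With a score of the 6 Hox genes as a term in the model, a setting added after the data were seen, the same 6 members were called with DSS in DIEC mice as without it, and 3 of the 9 rose with DSS in F/F mice: Hsd11b2 by 0.68, Sgk1 by 0.64 and Scnn1a by 0.58. Scnn1g was then at -0.24 (adjusted p = 0.56), Scnn1b at 0.33 (0.39), Fxyd4 at 0.74 (0.17) and Atp1b1 at 0.40 (0.059). With the term, the genes called higher with DSS numbered 1800 in DIEC and 1005 in F/F mice of 18267, against 2250 and 2982 without it. The score itself differed with DSS in F/F mice, so the fewer calls there are not a result about the members. Between genotypes Sgk1 stayed at 1.64 in naive and 1.45 in DSS colon. With the term, Scnn1g in naive colon passed at 0.83 (adjusted p = 0.031), while Scnn1b at 0.74 (0.061) and Fxyd4 at 1.01 (0.08) did not.

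Other cell markers moved with DSS too. The summed level of 6 crypt base and cycling markers was 1490 to 1840 scaled reads in DIEC DSS and 9370 to 13500 in DIEC naive, against 1700 to 4750 in F/F DSS and 9570 to 19700 in F/F naive, and all 6 fell with DSS in both genotypes. The 8 smooth muscle markers summed to 240000 to 298000 in DIEC DSS and 147000 to 173000 in DIEC naive, against 240000 to 303000 in F/F DSS and 176000 to 231000 in F/F naive. The 8 surface colonocyte markers summed to 416000 to 547000 in DIEC DSS and 359000 to 478000 in DIEC naive, against 328000 to 399000 in F/F DSS and 321000 to 356000 in F/F naive, and 3 of them (Car1, Car4 and Krt20) were higher in DIEC DSS than in F/F DSS. No listed marker was at 0 in all libraries, and the part of these shifts in the members' changes was not tested. When all libraries were scaled to the epithelial markers instead of the total, 3 members rose with DSS in DIEC mice and 5 in F/F mice, while the genes called higher numbered 1105 and 1513 of 18267, against 2250 and 2982 as deposited. Sgk1 and Tsc22d3 remained higher in DIEC naive than in F/F naive.

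**Figure D4:**
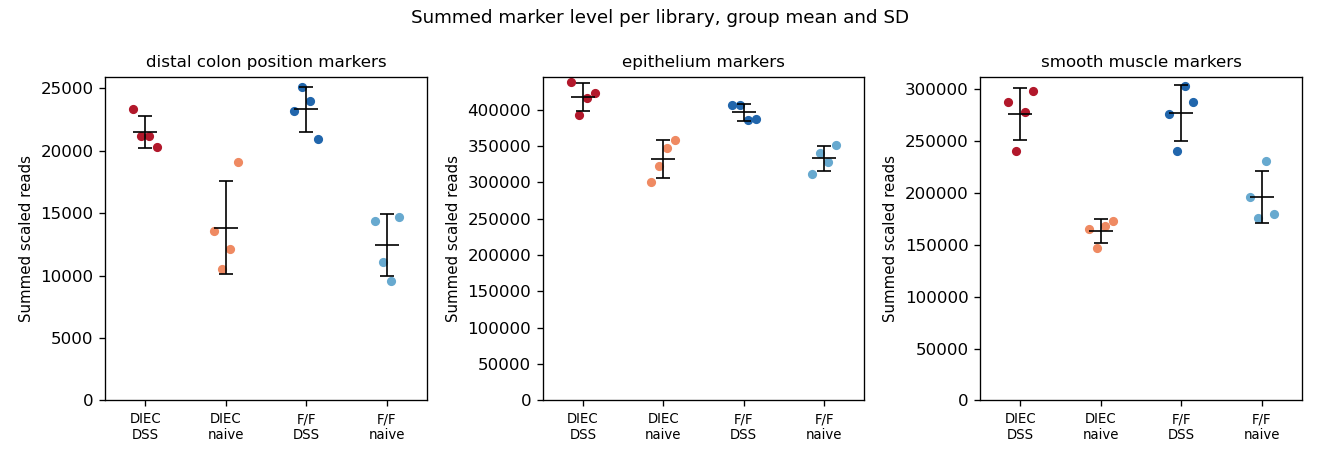
Summed scaled reads of the distal position, epithelium and smooth muscle markers (panels) in every library (points), with the mean and SD of each group of 4 libraries. All 3 sums are higher in the DSS groups than in the naive group of the same genotype, and the fourth DIEC naive library has the highest distal sum among the naive libraries, at 19100.

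Of the corticosteroid receptors, Nr3c2 rose and Nr3c1 fell with DSS in F/F mice, and Nr3c1 fell in DIEC mice. Nr3c2, the mineralocorticoid receptor, averaged 3720 ± 341 scaled reads in DIEC DSS and 3180 ± 323 in DIEC naive, against 3570 ± 536 in F/F DSS and 2730 ± 258 in F/F naive (SD, n = 4 each). Its change of 0.23 ± 0.10 with DSS in DIEC mice did not pass (adjusted p = 0.076), and it rose with DSS in F/F mice (0.38 ± 0.10, adjusted p = 0.0059, and 0.11 with an adjusted p of 0.6 with the distal score as a term). The differences of 0.22 ± 0.10 between the naive groups and 0.07 ± 0.10 between the DSS groups did not pass (adjusted p = 0.35 and 0.66). Nr3c1, the glucocorticoid receptor, averaged 1910 ± 110 in DIEC DSS and 3110 ± 140 in DIEC naive, against 2410 ± 238 in F/F DSS and 3140 ± 274 in F/F naive. It fell by 0.71 ± 0.08 with DSS in DIEC mice (adjusted p = 6e-07) and by 0.39 ± 0.08 in F/F mice (adjusted p = 0.00071), and was lower in DIEC DSS than in F/F DSS (log2 change -0.33 ± 0.08, adjusted p = 0.0047), a call that TMM scaling ends (-0.14, adjusted p = 0.26). Hsd11b1, which regenerates active glucocorticoid, fell with DSS in both genotypes, by 0.38 in DIEC and 0.82 in F/F mice, and the fall in DIEC mice did not pass under TMM (-0.13, adjusted p = 0.44). Of the 7 tested genes of this list none differed between the naive groups, where their median log2 change was -0.15.

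A list of 10 glucocorticoid-induced genes rose in part with DSS: 6 were higher and none lower in DIEC mice, and 5 were higher and none lower in F/F mice. Of all genes tested, 12.3% rose and 40.0% fell in DIEC mice, and 16.3% rose and 28.5% fell in F/F mice. The median log2 change of the 10 genes was 0.58 in DIEC and 0.50 in F/F mice, beside -0.24 and -0.11 for all genes. Per1, a clock gene, rose by 0.98 ± 0.16 in DIEC (adjusted p = 9.9e-05) and 1.30 ± 0.16 in F/F mice (adjusted p = 1.5e-05), and Fkbp5, a receptor chaperone, by 0.87 ± 0.24 and 0.78 ± 0.24 (adjusted p = 0.007 and 0.016). The F/F call of Fkbp5 was lost in 3 of 20 other settings (0.83 with an adjusted p of 0.13 with the distal score as a term). Between the naive groups 1 of the 10 was higher in DIEC, Errfi1, an inhibitor of growth factor receptor kinases (0.71 ± 0.14, adjusted p = 0.0091). Fkbp5 differed by 0.02 ± 0.24 and Per1 by 0.04 ± 0.16 there. In DSS colon Errfi1 (0.74 ± 0.14, adjusted p = 0.001) and Ddit4, an inhibitor of growth signalling (0.66 ± 0.12, adjusted p = 0.00069), were higher in DIEC.

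Among 19 other modifiers of the channel, none differed between DIEC naive and F/F naive, with a median log2 change of -0.01 beside -0.05 for all genes. With DSS 8 rose and 5 fell in DIEC mice, where 12.3% of all genes tested rose and 40.0% fell. In F/F mice 8 rose and 3 fell, against 16.3% and 28.5% of all genes. The channel-processing protease St14 rose by 0.78 ± 0.08 in DIEC (adjusted p = 1.8e-07) and 0.60 ± 0.08 in F/F mice (adjusted p = 1e-05), and the protease inhibitor Spint2 by 0.76 ± 0.11 and 0.77 ± 0.11. Nedd4l, the ligase that Sgk1 acts on, rose by 0.50 ± 0.08 in DIEC and 0.42 ± 0.08 in F/F mice. The related kinase Sgk3 moved against Sgk1: it averaged 128 ± 29.1 scaled reads in DIEC DSS and 277 ± 34.5 in DIEC naive, against 153 ± 9.15 in F/F DSS and 320 ± 40.5 in F/F naive, and fell by 1.13 ± 0.15 in DIEC and 1.05 ± 0.15 in F/F mice. Between the DSS groups Sgk2, another kinase of that family, was 1.93-fold higher in DIEC (0.95 ± 0.14, adjusted p = 0.00026), and 5 of the 19 modifiers were lower, where 26.0% of all genes were. Wnk4, a kinase that regulates sodium transporters, averaged 1020 ± 195 in DIEC DSS and 1210 ± 30.3 in DIEC naive, against 1640 ± 209 in F/F DSS and 1180 ± 104 in F/F naive. Its response to DSS was lower in DIEC mice (interaction -0.74 ± 0.16, adjusted p = 0.024). That call was lost in 7 of 27 other settings, among them TMM (-0.58, adjusted p = 0.068) and edgeR (-0.57, adjusted p = 0.073).

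Of 10 other pump subunits and FXYD proteins, 4 rose and 2 fell with DSS in DIEC mice, 3 rose and 2 fell in F/F mice, and none differed between the naive groups (median log2 change 0.23, 0.22 and -0.16). Of all genes tested, 12.3% rose and 40.0% fell with DSS in DIEC mice, and 16.3% rose and 28.5% fell in F/F mice. Fxyd3, another FXYD protein, fell by 1.07 ± 0.10 with DSS in DIEC and by 0.60 ± 0.10 in F/F mice, and its log2 change between DIEC DSS and F/F DSS was -0.58 ± 0.10 (adjusted p = 0.0006).

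Of 6 genes of potassium transport, 3 were lower in DIEC DSS than in F/F DSS, where 26.0% of all genes were. None of the 6 was higher there, and none was called between the naive groups. Of the 6, 2 rose and 3 fell with DSS in DIEC mice, where 12.3% of all genes tested rose and 40.0% fell. In F/F mice 2 rose and 1 fell, against 16.3% and 28.5% of all genes. Atp12a, the colonic proton-potassium pump, averaged 74300 ± 9480 scaled reads in DIEC DSS and 37400 ± 10100 in DIEC naive, against 58600 ± 15400 in F/F DSS and 28000 ± 8220 in F/F naive, and rose with DSS by 1.02 ± 0.23 in DIEC and 1.06 ± 0.23 in F/F mice. With the distal score as a term the value in F/F mice was 0.72 (adjusted p = 0.13). Kcnn4, a calcium-activated potassium channel, averaged 343 ± 51.6 in DIEC DSS and 1020 ± 102 in DIEC naive, against 1060 ± 242 in F/F DSS and 1110 ± 34.4 in F/F naive. It was lower in DIEC DSS than in F/F DSS (-1.61 ± 0.14, adjusted p = 1.3e-06), as were Kcnq1 (-0.88 ± 0.09, adjusted p = 4e-06) and its partner Kcne3 (-0.90 ± 0.21, adjusted p = 0.0055). The interaction passed for Kcnn4 (-1.49 ± 0.20, adjusted p = 0.0015) and Kcnq1 (-0.68 ± 0.13, adjusted p = 0.014), in the main model and in all 27 other settings. Of 9 genes of electroneutral sodium absorption, the route that exchanges sodium for protons, none differed between the naive groups. With DSS 1 rose and 1 fell in DIEC mice, and 2 rose and 1 fell in F/F mice, beside the shares of all genes given above. Between the DSS groups 2 of the 9 were lower in DIEC and none was higher, against 26.0% and 3.28% of all genes. The change of Slc9a3, the main exchanger of that route, was -0.69 ± 0.38 with DSS in DIEC mice and did not pass (adjusted p = 0.14). It fell by 1.00 ± 0.38 in F/F mice (adjusted p = 0.046), a call lost in 10 of 20 other settings (-0.90 with an adjusted p of 0.077 under TMM, and -0.38 with 0.65 with the distal score as a term).

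**Figure D5:**
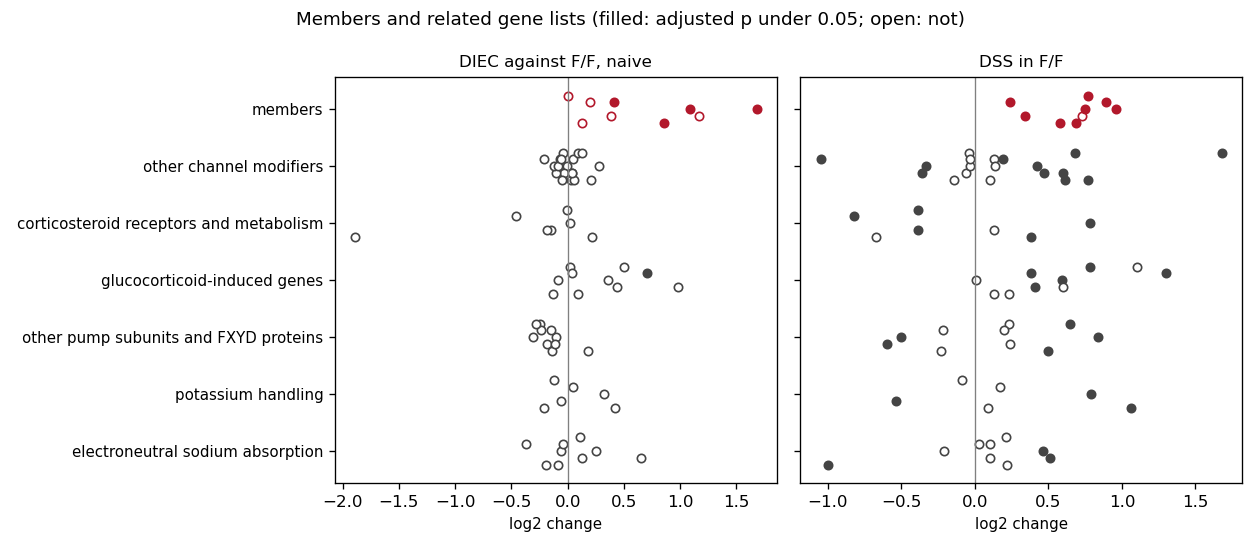
Log2 change on the x axis of the 9 members and of the genes of 6 related lists (rows, 1 point per gene) between DIEC naive and F/F naive (left) and with DSS in F/F mice (right), filled where the limma adjusted p was under 0.05. Between the naive groups 4 of 9 members and 1 gene of the other lists (Errfi1) are filled.

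The genes whose profile over the 16 libraries was most like the mean profile of Scnn1b and Scnn1g were Net1, Ppp1r3b, Wdr1, Rffl, Eno3 and Atp5g3, with root mean square differences between standardized log2 profiles of 0.43 to 0.47. Each of Scnn1b and Scnn1g differed from their own mean profile by 0.21. Net1, an exchange factor for a small GTPase, averaged 11800 ± 905 scaled reads in DIEC DSS and 8650 ± 825 in DIEC naive, against 7940 ± 746 in F/F DSS and 6370 ± 191 in F/F naive. Ppp1r3b, which targets a phosphatase to glycogen, averaged 3400 ± 153 in DIEC DSS and 2980 ± 403 in DIEC naive, against 2530 ± 210 in F/F DSS and 1690 ± 219 in F/F naive. Among the members the nearest to that profile was Sgk1 at 0.50, followed by Fxyd4 at 0.55 and Tsc22d3 at 0.63, and the farthest was the partner subunit gene Scnn1a at 0.99.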

How the data were processed

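RNA was extracted with Trizol from frozen colon and made into libraries with a TruSeq RNA kit, per the labels' protocols. Reads were handled with bcl2fastq, STAR 2.2.0c and HOMER 4.9, per the submitters' processing notes. HOMER counted reads over exons of mm9 gene models, per the file headers. The processing notes name mm10, so the build of the alignment is not settled, and gene positions are those of the table, in mm9. The header also sets a strand option, and genes that overlap on opposite strands were taken as uncertain.

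The deposited signal values are counts per gene that the authors divided by 1 factor per library. In every library 100% of the values up to 1000 reads lay within 0.01 of a whole number of reads, and the reads were recovered. In the first F/F DSS library 1 read was worth 1.007, so that its recovery rests on high values. Library totals were 25631586 to 42746008 in the headers, of which 76.98 to 81.72% lay on genes. The authors' deposited log2 fold changes and adjusted p-values were used only where named, and the sources used here do not name the tool behind them. The number of value columns that matched no sample was 0.

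As the deposited unit is scaled and not a raw count, the main test was limma 3.58.1 (R 4.3.3, eBayes with trend and robust) on log2(value + 1), with a mean per group over all 16 libraries. Because of the added 1, log2 changes of genes with few reads are understated. The filter kept a gene that reached 1 in 4 libraries, and p-values were adjusted by Benjamini-Hochberg over all 18267. Every adjusted p is from this model unless another source is named. The model was checked on simulated data with known changes. The quasi-likelihood test of edgeR 4.0.16 and DESeq2 1.42.0, run on 15695 genes with the reads recovered as above, other scalings, pseudocounts, filters, a replicate block and leaving out each library served as alternatives. Ratios were tested with exact permutation (SciPy 1.17.1).

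Values are means ± SD over 4 pools, changes are ± SE, and p-values measure the spread between pools. The members and gene lists were chosen with earlier results of these data known. Besides the members and both receptors, genes named from a list are mostly those with its 3 smallest adjusted p in a comparison. Nedd4l, Fkbp5, Per1, Ddit4, Atp12a, Slc9a3 and the genes of the markers were also named for their role, after their values were seen. A gene that this rule would name is not reported here. Like genes are the 6 nearest in root mean square difference among genes with a mean of at least 100. Promoter windows are from RefSeq (GRCm38.p6).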

Additional observations from a re-analysis of the deposited data

How the results depend on the processing

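All results were recomputed under 12 other settings and with each library left out (the interaction has no fit on the compared groups alone), and the distal score term was chosen after seeing the data. Leaving out 1 library gave 5 to 7 members called with DSS in DIEC, 6 to 7 with DSS in F/F, 1 to 4 between the naive groups, 2 to 6 between the DSS groups and 0 to 0 in the interaction. The genes called were then 8886 to 9367, 7279 to 7809, 232 to 386, 4024 to 5846 and 144 to 1661. Without the third DIEC DSS library, which stood apart from the other DSS libraries, 3 members were higher in DIEC DSS than in F/F DSS, as were 504 of 18267 genes. Scaling to the epithelium markers gave 3 members called with DSS in DIEC, 5 with DSS in F/F and 2 between the naive groups, and without a filter 1 was called between the naive groups. In that naive comparison 184 of 18267 genes were called higher with epithelium scaling and 200 of 24421 without a filter. The main model called 258 of 18267 higher there. With the distal score, 3 members and 3573 genes were called with DSS in F/F. The genes called between the naive groups numbered 826 with DESeq2. Between the DSS groups they numbered 2564 with TMM, 2705 with edgeR and 3071 with DESeq2. In the interaction 117 genes were called with TMM, 419 with epithelium scaling, 264 without a filter, 135 with edgeR, 213 with limma without trend and 323 with the distal score. Signs turned only for values that had no call: Scnn1a between the naive groups (-0.01 with epithelium scaling, -0.07 with the distal score, -0.07 to 0.08 without 1 library), Scnn1a and Hsd11b2 between the DSS groups (0.14 and 0.13 with TMM, 0.15 and 0.14 with edgeR and with DESeq2), and Scnn1g with DSS in F/F (-0.24 with the distal score). In the interaction Scnn1a and Tsc22d3 turned with TMM (0.10 and 0.13), edgeR and DESeq2 (0.11 and 0.14 with each), and Scnn1a and Scnn1g with the distal score (0.05 and 0.34). Without 1 library the interaction of Atp1b1 ran from -0.01 to 0.13, of Cnksr3 from -0.04 to 0.14, of Scnn1a from -0.13 to 0.02, of Scnn1g from -0.35 to 0.11 and of Tsc22d3 from -0.09 to 0.06. The cause of these differences was not tested. Replicate numbers are shared by the groups, and the deviations of libraries of the same number correlated by -0.148 to 0.232. The highest values were 0.232 and 0.212, for the first and second libraries of DIEC DSS and F/F DSS, each matched best by its own number. All others were 0.0734 or less. Whether the numbers pair the libraries is not settled, and the main model takes the libraries as unpaired. With the replicate block, 6, 8, 4, 4 and 0 members and 9922, 8623, 513, 5865 and 1247 genes were called in the 5 comparisons, in the order DSS in DIEC, DSS in F/F, naive genotype, DSS genotype and interaction. With 4 pools a group, the SE of a member's log2 change between 2 groups was 0.08 (Scnn1a) to 0.31 (Scnn1g).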
